A study of Drosophila melanogaster with 6 samples.

Results

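The 38 genes described here pattern the imaginal discs of Drosophila melanogaster or are Hox genes. They were chosen by symbol from a list, and all 38 were found among the 17908 genes of the deposited count table. By role they fall into 5 leg axis genes, 7 compartment and signal genes used in leg, wing and eye discs, 12 wing and thorax genes, 6 eye genes and 8 Hox genes. Polyadenylated RNA of whole larvae grown at room temperature was sequenced in 6 libraries, 2 for each of 3 genotypes. Rescue larvae carried fiomut on both second chromosomes, one of them together with an element written [U6+], and were U6mut/U6+ on another chromosome. Mutant larvae were fiomut/fiomut and U6mut/U6+ without that element. Control larvae, abbreviated wt in the labels, were fiomut/cyo, so they too carried 1 copy of the fio mutation, over a copy of the second chromosome written cyo, taken here as the CyO balancer, and no U6 allele is given for them. No source used here gives larval age, sex, the number of animals in a library or the kind of fio mutation. The series asks which genes are affected by METTL16, an enzyme that methylates adenosine in RNA and is known to act on U6 small nuclear RNA.

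Imaginal discs are epithelial sacs inside the larva that form the adult legs, wings and eyes at metamorphosis. Their cells are assigned to compartments and axes by selector transcription factors and by the secreted signals Hedgehog, Wingless and Dpp. Hox genes give each body segment its identity, in the discs and also in the larval nervous system, muscle and gut. Many of the genes in these groups act outside the discs as well, so a level in a whole larva adds up several tissues, and fewer cells of a type and less RNA per cell cannot be told apart. In the authors' deposited annotation 19 of the 38 are Homeobox factors, 4 are zf-C2H2, 3 are bHLH, 2 are PAX, and Pou, T-box and TEA have 1 each. The other 7 carry no factor family there, and they include the ligands hh, wg and dpp and the Hedgehog receptor gene ptc.

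The libraries held 15983161 to 17847161 counts. CG7544, which RefSeq also lists as METTL16, had 22 and 46 counts in rescue, 52 and 25 in mutant and 41 and 35 in control larvae, and its change did not pass the test in any comparison (edgeR quasi-likelihood test, adjusted p = 0.875 for mutant against control, 0.729 for rescue against mutant and 0.701 for rescue against control). Its RNA level therefore does not check the labels. Whether the 2 libraries of a genotype came from separate animals is not stated, so p-values measure the spread between libraries, which may be technical. The control libraries differed from each other for the genes studied here. Control 2 lay above control 1 for 32 of the 38 genes, with a median difference of 0.47 in log2 CPM, against 6149 of 11866 genes tested and a median of 0.02. Mutant 2 lay above mutant 1 for 31 of the 38 genes (median 0.26) and rescue 2 above rescue 1 for 21 (median 0.01). Calls against control are therefore given with and without each control library.

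Most of these genes were lower in mutant larvae than in control larvae, and higher in rescue larvae than in mutant larvae. All 38 passed the filter on low counts, although the proneural gene ac passed it only through its rescue and control libraries. The proneural genes sc and ato had 7 and 8 counts in mutant 1, under the minimum count of 10. They too would not have passed on their mutant libraries alone. Levels are CPM, counts scaled to a fixed library total with TMM factors, and differences are log2 fold changes of an edgeR fit over all 11866 genes tested, called at an adjusted p under 0.05. Against control, 8 of the 38 genes fell in mutant larvae (21.1%), where 7.04% of all genes tested did, and 1 rose, where 9.94% did. Their median log2 difference was -0.73, against -0.02 over all genes tested. Between rescue and mutant larvae 19 of the 38 rose in rescue (50%), where 7.61% of all genes tested did, and 1 fell, where 8.47% did. The median was 0.91, against 0.00 over all genes tested. Both comparisons use the 2 mutant libraries and so are not independent of each other.

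The mutant libraries did not overlap the control libraries and lay below them for 27 of the 38 genes, where this was so for 30.2% of all genes tested, and lay above them for 2, where it was so for 30.7%. The rescue libraries lay above the mutant libraries without overlap for 33 genes, against 33.8% of all genes tested, and below them for 1, against 33.1%. Mutant 1 was the lowest of the 6 libraries for 27 of the 38 genes, and a rescue library was the highest for 25. The matching shares of all genes tested were not computed, so these counts cannot be set against them. Without control 1 the number of these genes called between mutant and control larvae was 16, of which 15 were lower, where 1930 of all genes were called, 888 of them lower. Without control 2 it was 5, all lower, where 1216 of all genes were called, 486 of them lower. The calls gained without control 1 were those of en, hh, vg, salr, bi, ara, sc and Scr (adjusted p = 0.00853 to 0.0322). Without control 2 the same 8 genes had adjusted p = 0.224 to 0.917 and log2 differences of -0.55 to 0.05, with ara the 1 above 0. Leaving out mutant 1 or mutant 2 left few of these genes called in either comparison, and fewer of all genes tested as well. Against control, the share of the 38 called was then not clearly above that of all genes. Their median log2 difference from control was -0.58 without mutant 1 and -0.85 without mutant 2. Without rescue 1 or rescue 2, fewer calls remained between rescue and mutant larvae, among these genes and among all genes tested. Each such fit leaves 1 library alone in its group, whose spread is then assumed to be that of the others.

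**Figure D1:**
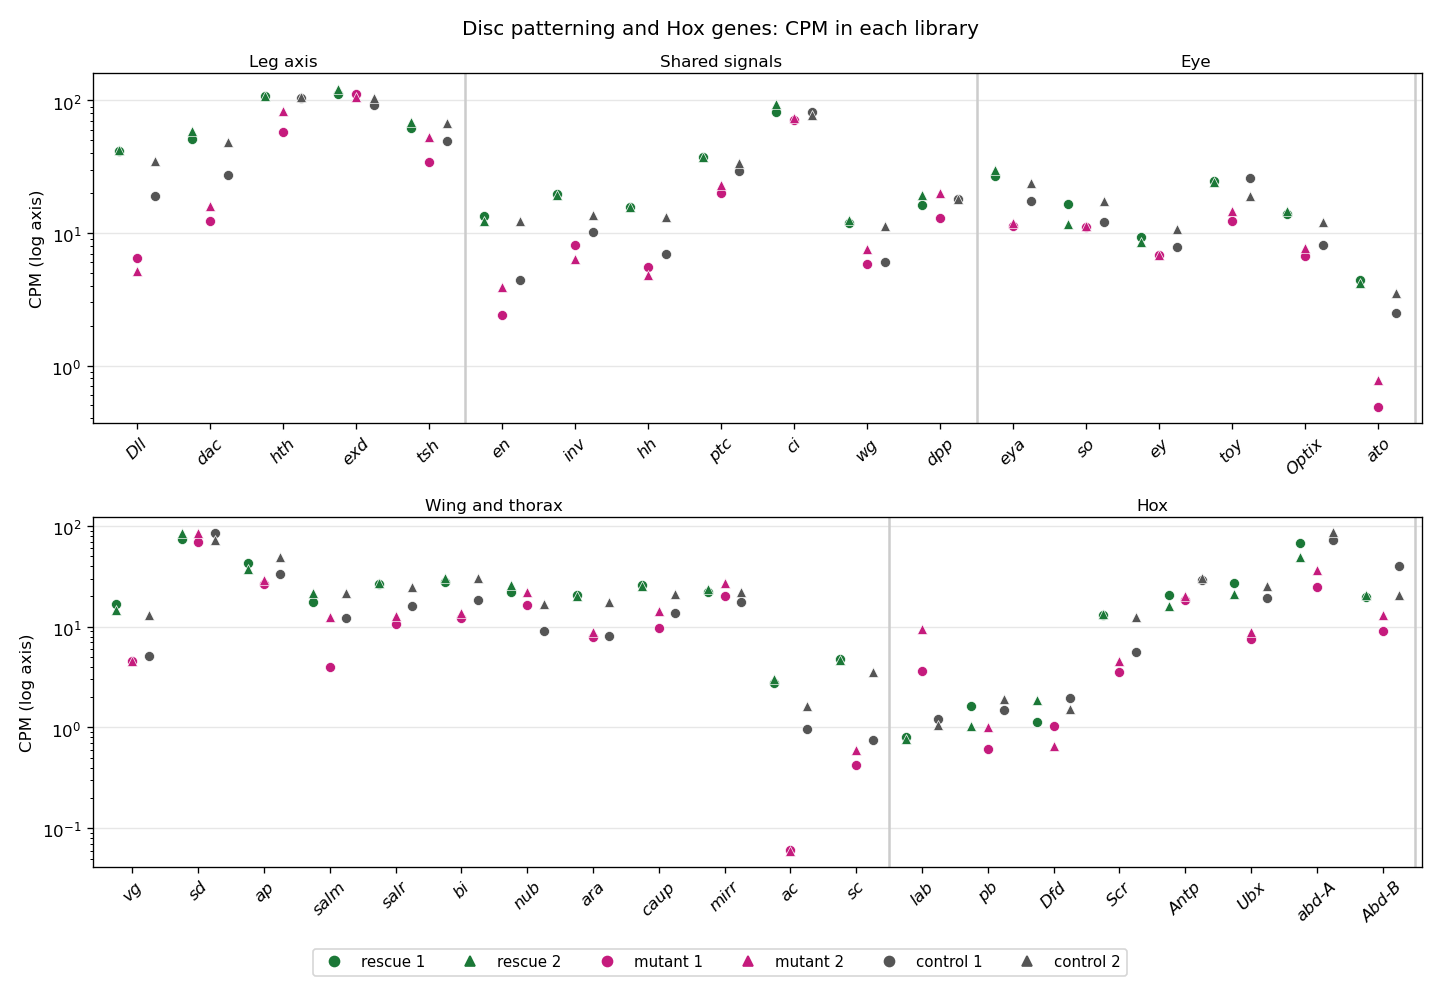
Level of each of the 38 genes in each of the 6 libraries, in CPM on a log axis, with rescue (green), mutant (magenta) and control (grey) side by side for each gene and circles and triangles for libraries 1 and 2. The mutant points lie lowest for most genes, and control 1 often lies between mutant and control 2. Exceptions include lab, with the mutant points highest at 3.63 and 9.43 CPM. Control 1 is the lowest library for 3 genes and rescue 2 for 2.

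**Figure D2:**
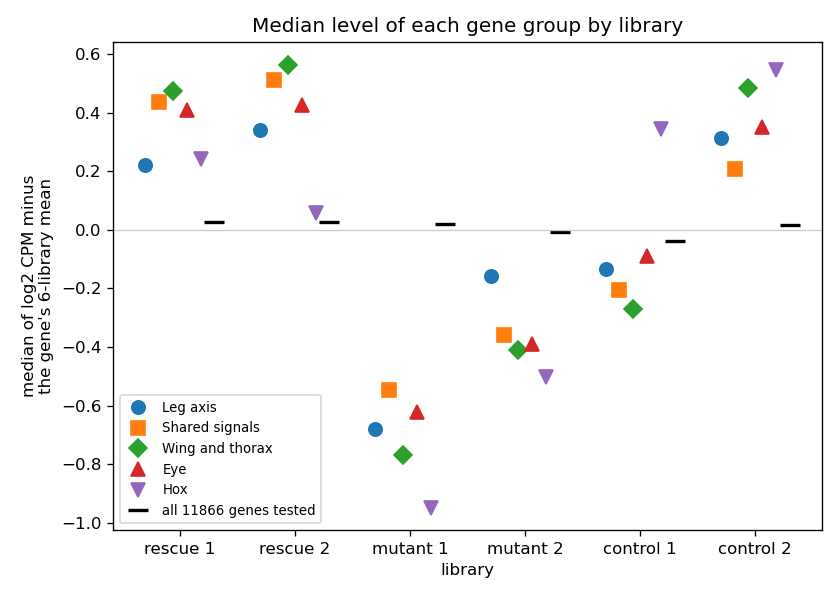
Median over each gene group of log2 CPM minus the gene's own mean over the 6 libraries, for the leg, signal, wing, eye and Hox groups and for all genes tested (black bars). All 5 groups are below 0 in both mutant libraries, and the Hox group differs from the other groups in control 1, where it stands at 0.34 and the others lie between -0.27 and -0.09.

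Among the genes of the leg axis the distal and middle selectors changed and the proximal ones did not pass the test. Dll, the homeobox gene that specifies distal limb fate (2R, 24814822 to 24835667), had 41.9 and 42.1 CPM in rescue, 6.47 and 5.19 CPM in mutant and 19.0 and 34.8 CPM in control larvae. Its libraries did not overlap between any pair of genotypes, and the mutant libraries were the low ones. Dll fell in mutant against control larvae (log2 -2.21, SE 0.32, adjusted p = 0.00574) and rose in rescue against mutant larvae (log2 2.85, SE 0.32, adjusted p = 0.00327). dac, needed for the middle segments of the leg and also for the eye and the mushroom body (2L, 16466512 to 16485998), had 51.6 and 58.4 CPM in rescue, 12.2 and 15.9 CPM in mutant and 27.2 and 48.2 CPM in control larvae, with control 1 closer to the mutant libraries than control 2 was. dac fell in mutant against control larvae (log2 -1.42, SE 0.30, adjusted p = 0.0221) and rose in rescue against mutant larvae (log2 1.97, SE 0.31, adjusted p = 0.00872). Without mutant 2 the changes of Dll and dac against control missed the threshold (adjusted p = 0.0606 and 0.0818), and that of dac did so without mutant 1 (0.132) or control 2 (0.0652) as well. Between rescue and mutant larvae dac missed it without mutant 1 or mutant 2 (adjusted p = 0.0836 and 0.0523), while Dll was called under each of the 14 alternatives.

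The proximal genes differed less. hth, which marks proximal leg and is required for nuclear entry of Exd, had 108 and 109 CPM in rescue, 57.6 and 82.9 CPM in mutant and 105 and 106 CPM in control larvae. Its mutant libraries were below all others, with a log2 difference of -0.59 (SE 0.22) against control that did not pass. tsh, a zinc finger gene of proximal appendages and trunk, had 61.7 and 68.6 CPM in rescue, 34.1 and 52.8 CPM in mutant and 49.4 and 67.4 CPM in control larvae, and mutant 2 lay within the range of the control libraries. exd, the Hox cofactor that is transcribed in most tissues, had 112 and 122 CPM in rescue, 111 and 106 CPM in mutant and 91.8 and 104 CPM in control larvae. It was the gene of the 38 with the highest level per length, at 32.4 FPKM on average over the 6 libraries in the authors' deposited FPKM table, and its log2 differences were 0.15 (SE 0.19) for mutant against control and 0.11 (SE 0.19) for rescue against mutant.

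Posterior compartment genes stood out among the compartment and signal genes. en, the selector of posterior fate (2R, 11524006 to 11528210), had 13.4 and 12.3 CPM in rescue, 2.42 and 3.94 CPM in mutant and 4.43 and 12.3 CPM in control larvae. Its neighbour and relative inv (2R, 11474465 to 11509695) had 19.6 and 19.2 CPM in rescue, 8.17 and 6.33 CPM in mutant and 10.2 and 13.6 CPM in control larvae. hh, which encodes the signal that posterior cells send across the boundary (3R, 23128169 to 23141906), had 15.7 and 15.7 CPM in rescue, 5.56 and 4.84 CPM in mutant and 6.99 and 13.2 CPM in control larvae. In all 3 genes the mutant libraries were below every other library, control 1 was the lower control library, and both rescue libraries were above control 1. All 3 rose in rescue against mutant larvae, en at log2 2.01, SE 0.50, adjusted p = 0.0362, inv at log2 1.42, SE 0.26, adjusted p = 0.0137 and hh at log2 1.59, SE 0.33, adjusted p = 0.0225. Against control their log2 differences were -1.40, -0.72 and -0.96, with adjusted p = 0.0933, 0.0970 and 0.0905, and these moved with the control library left out. For en the log2 difference was -1.94 without control 1 (adjusted p = 0.0132) and -0.48 without control 2 (0.448), and for hh it was -1.33 (0.0194) and -0.43 (0.366).

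The genes that receive the Hedgehog signal in anterior cells differed less. ptc, the Hedgehog receptor and itself a target of the pathway, had 37.3 and 37.6 CPM in rescue, 20.1 and 22.9 CPM in mutant and 29.5 and 33.9 CPM in control larvae, and rose in rescue against mutant larvae (log2 0.80, SE 0.19, adjusted p = 0.0325). ci, the transcription factor of the pathway and the signal gene with the highest level per length (14.1 FPKM), had 82.4 and 93.7 CPM in rescue, 71.3 and 74.3 CPM in mutant and 81.5 and 77.5 CPM in control larvae. The ci libraries of rescue and mutant larvae did not overlap, but the log2 difference was only 0.27 (SE 0.18) and did not pass. Of the ligands that act along the boundaries, wg had 11.9 and 12.5 CPM in rescue, 5.81 and 7.58 CPM in mutant and 6.01 and 11.2 CPM in control larvae, and dpp, whose product is a BMP-type ligand, had 16.2 and 19.5 CPM in rescue, 12.9 and 19.9 CPM in mutant and 18.0 and 18.1 CPM in control larvae. The dpp libraries overlapped in all 3 comparisons, and control 1 lay within the mutant range for wg. In the edgeR fit 0 of these 7 genes passed against control, where 17.0% of all genes tested did. Unadjusted, 4 were lower at p under 0.05 in edgeR, and DESeq2 called 3 lower. Between rescue and mutant larvae 4 rose by edgeR (57.1%, against 7.61% of all genes tested) and 4 by DESeq2. All 4 calls missed the threshold without mutant 1 (adjusted p = 0.0624 to 0.198), mutant 2 (0.0768 to 0.121), rescue 1 (0.0537 to 0.141) or rescue 2 (0.0632 to 0.180).

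**Figure D3:**
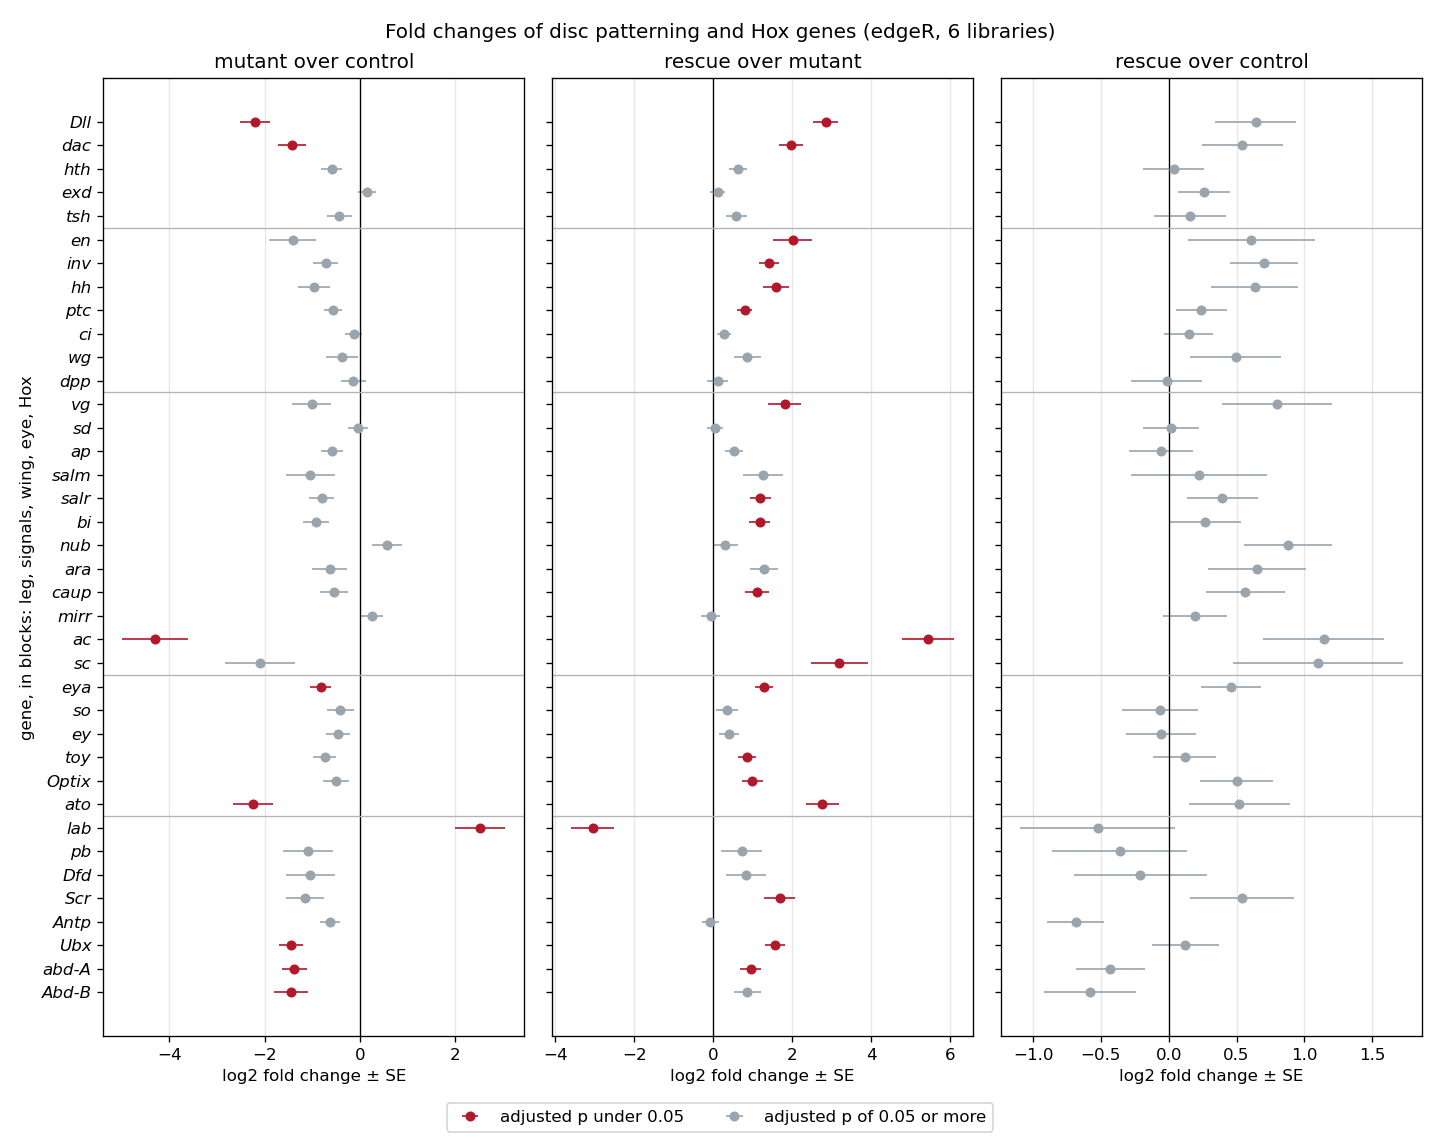
Log2 fold changes with their SE for each of the 38 genes, from 1 edgeR fit of all 6 libraries, for mutant over control, rescue over mutant and rescue over control, with genes in blocks for leg, signals, wing, eye and Hox. Red points passed an adjusted p under 0.05, and these are 9 genes for mutant over control, 20 for rescue over mutant and 0 for rescue over control, where the axis is narrower.

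Within the wing and thorax group the proneural genes of the achaete-scute complex changed most. ac, a bHLH gene that starts the formation of bristle precursors (X, 370031 to 370947), had 49 and 56 counts in rescue, 1 and 1 in mutant and 13 and 28 in control larvae. No 2 genotypes overlapped, and the rescue libraries were the highest. ac fell in mutant against control larvae (log2 -4.30, SE 0.69, adjusted p = 0.00838), and rose in rescue against mutant larvae (adjusted p = 0.00368), with a rescue to mutant ratio of 48.7 and an exact 95% counting interval of 13.2 to 408, which covers counting error only. Its neighbour sc (X, 396060 to 397497), with a like role, had 4.79 and 4.69 CPM in rescue, 0.423 and 0.597 CPM in mutant and 0.752 and 3.58 CPM in control larvae. The 2 control libraries of sc differed widely, with control 1 near the mutant libraries and control 2 near the rescue libraries. sc rose in rescue against mutant larvae (log2 3.20, SE 0.72, adjusted p = 0.0274) and its difference from control was -2.09 (SE 0.73), which did not pass (adjusted p = 0.0912). The log2 difference of sc was -2.78 without control 1 (adjusted p = 0.00853) and -0.55 without control 2 (0.565).

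Of 5 genes of the wing blade and of the territories set by Dpp, vg, bi and salr rose in rescue against mutant larvae, and sd and salm did not pass. vg, the wing selector (2R, 12884632 to 12899385), had 17.0 and 14.8 CPM in rescue, 4.54 and 4.54 CPM in mutant and 5.19 and 13.0 CPM in control larvae, and rose in rescue against mutant larvae (log2 1.81, SE 0.42, adjusted p = 0.0305). Control 1 was close to the mutant libraries of vg and control 2 close to the rescue libraries. sd, which encodes the DNA-binding partner of Vg and of Yorkie, had 74.7 and 85.6 CPM in rescue, 69.2 and 86.0 CPM in mutant and 85.1 and 73.5 CPM in control larvae. These libraries overlapped in every comparison, with a log2 difference of -0.03 (SE 0.20) for mutant against control and 0.05 (SE 0.20) for rescue against mutant, so these values do not follow those of vg. bi, a T-box target of Dpp (X, 4412856 to 4485647), had 28.1 and 30.7 CPM in rescue, 12.3 and 13.6 CPM in mutant and 18.6 and 30.2 CPM in control larvae, and rose in rescue against mutant larvae (log2 1.18, SE 0.27, adjusted p = 0.0279). The spalt genes are zinc finger targets of Dpp that position wing veins. salr (2L, 11358873 to 11373636) had 26.5 and 27.5 CPM in rescue, 10.7 and 12.9 CPM in mutant and 15.9 and 25.1 CPM in control larvae and rose in rescue against mutant larvae (log2 1.19, SE 0.27, adjusted p = 0.0271). salm, its neighbour, had 17.7 and 21.7 CPM in rescue, 3.99 and 12.4 CPM in mutant and 12.3 and 21.4 CPM in control larvae, and mutant 1 and mutant 2 were far apart. Its log2 difference between rescue and mutant larvae was 1.26 (SE 0.51) and did not pass (adjusted p = 0.136).

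The Iroquois genes, homeobox genes of the notum and dorsal eye that lie side by side on 3L, did not all follow this pattern. caup (3L, 12609631 to 12621798) had 26.1 and 25.5 CPM in rescue, 9.68 and 14.2 CPM in mutant and 13.6 and 21.3 CPM in control larvae and rose in rescue against mutant larvae (log2 1.11, SE 0.30, adjusted p = 0.0451). ara had 20.5 and 20.3 CPM in rescue, 7.86 and 8.84 CPM in mutant and 8.04 and 17.8 CPM in control larvae, with no overlap between rescue and mutant libraries, and missed the threshold in that comparison (log2 1.29, SE 0.37, adjusted p = 0.0541). mirr, the other gene of the complex, had 22.2 and 23.6 CPM in rescue, 20.1 and 27.5 CPM in mutant and 17.6 and 22.4 CPM in control larvae. Its libraries overlapped in every comparison, and the log2 difference between rescue and mutant larvae was -0.06 (SE 0.24). ap, the dorsal wing selector, had 42.9 and 37.3 CPM in rescue, 26.7 and 28.9 CPM in mutant and 33.6 and 49.8 CPM in control larvae. nub, a POU gene of the wing that is also a marker of midgut enterocytes, had 22.2 and 25.8 CPM in rescue, 16.6 and 22.2 CPM in mutant and 9.17 and 16.9 CPM in control larvae. For nub the mutant libraries were not low, since both control libraries were below mutant 2 and control 1 was the lowest of the 6. Of the 12 wing and thorax genes 1 fell against control in edgeR (ac, 8.33%), near the 7.04% of all genes tested. Unadjusted, 6 were lower at p under 0.05 in edgeR, and DESeq2 called 4 lower. The estimate was negative for 10 of the 12 (83.3%, against 51% of all genes tested). In rescue against mutant larvae 6 rose (50%, against 7.61%). The call on ac against control was lost without mutant 1 or mutant 2 (adjusted p = 0.0688 and 0.0659), while ac was called between rescue and mutant larvae under each of the 14 alternatives. The other 5 calls of that comparison, on vg, salr, bi, caup and sc, missed the threshold without mutant 1 (adjusted p = 0.145 to 0.200), mutant 2 (0.0848 to 0.144), rescue 1 (0.0630 to 0.140) or rescue 2 (0.0748 to 0.154).

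All 6 eye genes had mutant libraries below every control and every rescue library. Over all genes tested, mutant libraries lay below both control libraries for 30.2% and below both rescue libraries for 33.8%. ato, the proneural gene of the founding photoreceptors and of chordotonal organs (3R, 8278052 to 8279274), had 4.44 and 4.20 CPM in rescue, 0.484 and 0.776 CPM in mutant and 2.48 and 3.52 CPM in control larvae. It fell in mutant against control larvae (log2 -2.24, SE 0.43, adjusted p = 0.0158) and rose in rescue against mutant larvae (log2 2.76, SE 0.42, adjusted p = 0.00810). eya, which encodes a transcriptional coactivator and phosphatase of the retinal determination network (2L, 6527447 to 6546976), had 26.8 and 29.9 CPM in rescue, 11.4 and 11.9 CPM in mutant and 17.5 and 23.7 CPM in control larvae. It fell in mutant against control larvae (log2 -0.82, SE 0.23, adjusted p = 0.0482) and rose in rescue against mutant larvae (log2 1.28, SE 0.23, adjusted p = 0.0132). The fall of eya against control is close to the threshold and was called in only 4 of the 14 alternatives.

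The other eye genes differed by less. toy, a PAX6 gene at the top of the network (4, 989725 to 1007922), had 24.7 and 24.1 CPM in rescue, 12.3 and 14.7 CPM in mutant and 26.1 and 18.9 CPM in control larvae, and rose in rescue against mutant larvae (log2 0.86, SE 0.24, adjusted p = 0.0493). Optix, a homeobox gene related to so (2R, 8031283 to 8042529), had 14.0 and 14.7 CPM in rescue, 6.65 and 7.70 CPM in mutant and 8.12 and 12.1 CPM in control larvae, and rose in rescue against mutant larvae (log2 0.996, SE 0.27, adjusted p = 0.0481). These adjusted p-values are just under the threshold, and the calls held in 6 and 8 of the 14 alternatives. ey, the other PAX6 gene, had 9.40 and 8.62 CPM in rescue, 6.83 and 6.81 CPM in mutant and 7.89 and 10.8 CPM in control larvae, and so, which encodes the homeodomain partner of Eya, had 16.7 and 11.8 CPM in rescue, 11.1 and 11.3 CPM in mutant and 12.2 and 17.6 CPM in control larvae. Both had mutant libraries that were nearly equal to each other and lay just under the lowest library of the other genotypes, and neither passed the test. ato and eya missed the threshold against control without mutant 1 (adjusted p = 0.0987 and 0.167) or mutant 2 (0.0606 and 0.143), and eya also without control 2 (0.178), rescue 1 (0.0926) or rescue 2 (0.0951). Of the 4 calls between rescue and mutant larvae, 4 were lost without mutant 1 (adjusted p = 0.0724 to 0.205), 3 without mutant 2 (0.0700 to 0.130), 2 without rescue 1 (0.149 and 0.186) and 3 without rescue 2 (0.0808 to 0.206).

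Hox genes moved in both directions. The 3 genes of the bithorax complex, which specify the posterior thorax and the abdomen (3R, 16656623 to 16972236), were lower in mutant than in control larvae, and lab, the first gene of the Antennapedia complex, was higher. Ubx, the gene of the haltere and posterior thorax, had 27.3 and 21.2 CPM in rescue, 7.56 and 8.84 CPM in mutant and 19.2 and 25.3 CPM in control larvae. Both mutant libraries were below all others. Ubx fell in mutant against control larvae (log2 -1.44, SE 0.25, adjusted p = 0.0120) and rose in rescue against mutant larvae (log2 1.56, SE 0.25, adjusted p = 0.00984). abd-A, an abdominal gene that also acts in neuroblasts, had 68.1 and 49.8 CPM in rescue, 24.9 and 36.2 CPM in mutant and 72.4 and 86.4 CPM in control larvae, and was the Hox gene with the highest level per length (10.2 FPKM). It fell in mutant against control larvae (log2 -1.38, SE 0.26, adjusted p = 0.0158) and rose in rescue against mutant larvae (log2 0.95, SE 0.26, adjusted p = 0.0489), although the rescue libraries stayed below both control libraries and the second call held in 6 of the 14 alternatives. Abd-B, which specifies the most posterior segments, had 19.8 and 20.9 CPM in rescue, 9.13 and 13.2 CPM in mutant and 40.2 and 20.7 CPM in control larvae. It fell in mutant against control larvae (log2 -1.45, SE 0.35, adjusted p = 0.0321), control 1 was well above the other 5 libraries, and without control 1 its adjusted p was 0.0863. Between rescue and mutant larvae it did not pass (log2 0.87, SE 0.35, adjusted p = 0.130).

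In the Antennapedia complex, which serves the head and the anterior thorax, the genes differed from each other. lab, a head gene that is also required for the copper cells of the midgut (3R, 6661427 to 6678590), had 0.798 and 0.764 CPM in rescue, 3.63 and 9.43 CPM in mutant and 1.20 and 1.06 CPM in control larvae. Only its mutant libraries were high, and mutant 2 was well above mutant 1. lab rose in mutant against control larvae (log2 2.53, SE 0.53, adjusted p = 0.0205) and fell in rescue against mutant larvae (log2 -3.05, SE 0.54, adjusted p = 0.0129). Without mutant 2 these log2 differences were 1.68 and -2.21, and neither passed. The summed CPM of 8 midgut enzyme genes was 5251 and 2715 in rescue, 17784.5 and 17275 in mutant and 3312 and 2228 in control larvae, so it was also highest in the mutant libraries. Of these 8 genes 6 rose in mutant against control larvae, where 9.94% of all genes tested did, and 6 fell in rescue against mutant larvae, where 8.47% did. Among them was the trypsin gene alphaTry (log2 5.23 and -4.47). The part of these genes in the change of lab was not tested. Scr, the gene of the labial segment, first thoracic segment and salivary gland (3R, 6823120 to 6849981), had 13.0 and 13.3 CPM in rescue, 3.57 and 4.60 CPM in mutant and 5.56 and 12.4 CPM in control larvae. It rose in rescue against mutant larvae (log2 1.69, SE 0.40, adjusted p = 0.0320) and its log2 difference from control was -1.15 (SE 0.40), which did not pass (adjusted p = 0.0900). This difference of Scr was -1.60 without control 1 (adjusted p = 0.0139) and -0.44 without control 2 (0.390).

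Antp, the Hox gene of the second thoracic segment and its leg, had 20.7 and 16.2 CPM in rescue, 18.6 and 20.1 CPM in mutant and 28.9 and 30.3 CPM in control larvae. Its control libraries were above all others and its rescue libraries did not differ from the mutant libraries beyond their spread, at a log2 difference of -0.07 (SE 0.21). A gene on the same strand, CG46458, covers 50.1% of the exon bases of Antp in the Ensembl annotation, so counts of Antp are uncertain. pb and Dfd, which specify mouthparts and other head segments, were the least abundant of the 38 per length, at 0.344 and 0.493 FPKM. pb had 1.65 and 1.04 CPM in rescue, 0.605 and 1.02 CPM in mutant and 1.50 and 1.94 CPM in control larvae and Dfd had 1.14 and 1.86 CPM in rescue, 1.03 and 0.657 CPM in mutant and 1.95 and 1.53 CPM in control larvae. Their log2 differences between mutant and control larvae were -1.08 (SE 0.52) and -1.04 (SE 0.51), and neither gene passed in any comparison. Of the 8 Hox genes 3 fell (37.5%, against 7.04% of all genes tested) and 1 rose (12.5%, against 9.94%) against control. In rescue against mutant larvae 3 rose (37.5%, against 7.61%) and 1 fell (12.5%, against 8.47%). Against control, calls were lost without mutant 1 for Ubx, abd-A and Abd-B (adjusted p = 0.0832, 0.0893 and 0.177), without mutant 2 for lab, Ubx and Abd-B (0.116, 0.0606 and 0.0926), and without control 2 for lab and abd-A (0.0716 and 0.0512). Between rescue and mutant larvae 3 calls were lost without mutant 1 (adjusted p = 0.0822 to 0.202), 4 without mutant 2 (0.0551 to 0.117), 2 without rescue 1 (0.0790 and 0.241) and 3 without rescue 2 (0.0640 to 0.103).

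Rescue larvae were compared with control larvae directly. Among the 38 genes 0 passed this test in edgeR (3 higher and 1 lower at an unadjusted p under 0.05) and 0 in DESeq2. Of all genes tested, 0.640% passed in edgeR, 0.354% higher and 0.287% lower. The median log2 difference of the 38 was 0.25, against 0.07 over all genes tested. The rescue libraries lay above both control libraries for 20 genes, against 30.7% of all genes tested, and below both for 3, against 23.5%. Among the leg, signal, wing and eye genes the estimate was positive for 5 of 5, 6 of 7, 11 of 12 and 4 of 6, and among the Hox genes it was negative for 6 of 8. Over all genes tested it was positive for 55.7% and negative for 44.3%, so the eye genes (66.7% positive) were not far from that share. The largest positive estimates were those of ac at 1.14 (SE 0.45), sc at 1.10 (SE 0.62), nub at 0.88 (SE 0.32) and vg at 0.80 (SE 0.41). The most negative were those of Antp at -0.69 (SE 0.21), Abd-B at -0.58 (SE 0.34) and lab at -0.52 (SE 0.57). Without control 2, vg, nub, ara and sc were called higher in rescue than in control larvae (adjusted p = 0.0303, 0.0483, 0.0399 and 0.0350), where 778 of all genes were called, 365 of them higher. Without control 1 none of the 38 was called, and 50 of all genes were. The summed CPM of 10 muscle genes was 19970.0 and 17989.8 in rescue, 31921 and 33340.0 in mutant and 83241 and 48577 in control larvae. Muscle, where Hox genes are also expressed, thus had its highest marker sums in the control libraries. Of these 10 genes 4 fell in mutant against control larvae, where 7.04% of all genes tested did. For rescue against control 0 of the 10 passed in edgeR (unadjusted, 9 were lower at p under 0.05, and DESeq2 called 9 lower). The part of muscle in the Hox values was not tested.

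The control larvae differ from the others in their second chromosomes, since 1 of them is the cyo chromosome, and rescue and mutant larvae are labelled U6mut/U6+ while control larvae have no U6 label. Effects of the fio genotype, the U6 allele and the cyo chromosome cannot be told apart in comparisons with control. Of the 16 genes of the 38 on the second chromosome 3 fell in mutant against control larvae (median log2 difference -0.65). Of the 22 on other chromosomes 5 fell and 1 rose (median -0.83). Between rescue and mutant larvae, 9 of the 16 rose (median 1.09) and 10 of the 22 rose and 1 fell (median 0.86). Over all genes tested, not split by chromosome, 7.04% fell and 9.94% rose in mutant against control larvae. For rescue against mutant larvae 7.61% rose and 8.47% fell.

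Other genes of the same pathways were read from lists of 114 further signalling and patterning genes, of which 109 were tested. Of these, 21 fell in mutant against control larvae (19.3%, against 7.04% of all genes tested) and 2 rose (1.83%, against 9.94%). Their median log2 difference was -0.54. In rescue against mutant larvae 42 rose (38.5%, against 7.61%) and 2 fell (1.83%, against 8.47%), with a median of 0.82. The lists were chosen with earlier results of these data known. In the Hedgehog pathway ihog, a co-receptor of the ligand, and slmb, a gene for an F-box protein needed for Ci processing, fell among 10 genes tested. ihog averaged 65.4 ± 1.80 CPM in rescue, 20.6 ± 0.875 CPM in mutant and 38.2 ± 8.79 CPM in control larvae (SD, n = 2 each). Both rose in rescue against mutant larvae, and Su(fu), which encodes a Ci inhibitor, rose with them in rescue against mutant larvae at log2 0.79. Of 23 other Wingless pathway genes 2 fell, near the 7.04% of all genes tested. They were the receptor gene fz (log2 -1.07) and the ligand gene Wnt2 (log2 -1.96). In rescue against mutant larvae 5 of the 23 rose, where 7.61% of all genes tested did. Among them was the feedback inhibitor gene nkd (log2 1.37). Of 15 other Dpp pathway genes tested 2 rose in mutant larvae, magu and the type II receptor gene wit, near the 9.94% of all genes tested. magu, which encodes a secreted modulator of BMP signalling, averaged 35.3 ± 0.978 CPM in rescue, 72.0 ± 16.7 CPM in mutant and 25.1 ± 0.955 CPM in control larvae (SD, n = 2 each). In rescue against mutant larvae, magu and the BMP antagonist gene sog fell (log2 -1.03 and -0.74), while the protease gene tld rose (log2 1.18).

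For the counts that follow, 7.04% of all genes tested fell in mutant against control larvae and 7.61% rose in rescue against mutant larvae. Of 15 Notch and EGFR genes 3 fell in mutant against control larvae, the Notch ligand gene Dl and the Notch targets E(spl)m8-HLH and E(spl)mbeta-HLH (log2 -0.88, -1.97 and -1.43). In rescue against mutant larvae 7 rose, among them fng, which encodes a glycosyltransferase acting on Notch (log2 1.35). Of 18 further leg genes 5 fell in mutant larvae and 12 rose in rescue against mutant larvae. Sp1, a zinc finger gene of leg fate, averaged 36.6 ± 0.624 CPM in rescue, 7.39 ± 0.492 CPM in mutant and 26.7 ± 6.51 CPM in control larvae (SD, n = 2 each), and the tarsal homeobox genes C15 and Lim1 fell in mutant larvae by 2.80 and 1.35 on the log2 scale. rn, another tarsal gene, rose in rescue against mutant larvae (log2 1.16). Of 19 further wing and thorax genes 5 fell in mutant larvae, including mid and ems (log2 -2.06 and -1.64), and 11 rose in rescue against mutant larvae, including Dr (log2 1.80). Of 13 further eye genes tested 5 fell in mutant larvae and 7 rose in rescue against mutant larvae. These included danr (log2 -2.29 and 2.29), the PAX gene eyg (log2 -1.95 and 2.09), which is also on the wing list, and the photoreceptor gene gl (log2 -1.90 and 2.81).

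Hox genes are kept on or off by trithorax and Polycomb group proteins. Of 26 such regulator genes 0 passed against control in edgeR (unadjusted, 3 were lower at p under 0.05, and DESeq2 called 2 lower). In rescue against mutant larvae 3 of the 26 rose, where 7.61% of all genes tested did. They were the histone-binding gene Caf1-55 at log2 0.81, the Polycomb group gene Psc at 1.41 and ph-d at 1.36. ph-d has a close tandem copy, ph-p, with which it may share reads, so its value is uncertain.

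Marker lists for tissues and stages give levels to set beside these genes. Of all genes tested, 7.04% fell and 9.94% rose in mutant against control larvae. In rescue against mutant larvae 7.61% rose and 8.47% fell. Of 7 neuroblast markers 5 fell in mutant against control larvae, among them wor, ase and mira (log2 -1.86, -1.65 and -1.16), and 4 rose in rescue against mutant larvae. Their summed CPM was 200 and 239 in rescue, 86.7 and 122 in mutant and 221 and 245 in control larvae, and pros, 1 of the 7, is also on the eye list. Of 12 neuron markers 2 fell in mutant larvae, elav and nSyb (log2 -1.02 and -1.22), and 3 had positive estimates, up to 0.29, that did not pass. In rescue against mutant larvae 2 rose, and 3 had negative estimates, down to -0.64, that did not pass. The neuron sums were 325 and 419 in rescue, 245 and 298 in mutant and 349 and 386 in control larvae. Of 8 epithelial adhesion and polarity genes that discs share with other epithelia 0 passed against control in edgeR (unadjusted, 2 were lower at p under 0.05, and DESeq2 called 0). In rescue against mutant larvae edgeR called 1 of the 8 higher, the planar polarity gene ds (log2 1.23). Unadjusted, 6 were higher at p under 0.05 in edgeR, DESeq2 called 4 higher, and 7 of the 8 estimates were positive. The sums were 674 and 708 in rescue, 392 and 553 in mutant and 616 and 637 in control larvae.

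Stage markers differed by more. The sum of 15 ecdysone response genes, which change around moults and pupariation, was 1923 and 1899.6 in rescue, 371 and 590.1 in mutant and 978 and 1473 in control larvae, with control 1 below control 2 as for most of the 38 genes. Of these, 6 fell in mutant against control larvae, among them br (log2 -2.24), and 10 rose and 1 fell in rescue against mutant larvae. The sum of 7 salivary glue genes, most of them made late in larval life, was 13432 and 13086 in rescue, 222 and 762 in mutant and 3343 and 8808 in control larvae. Of the 7, 6 fell in mutant against control larvae. In rescue against mutant larvae 5 rose, and 1 had a negative estimate (log2 -0.24) that did not pass. The glue gene ng3 averaged 223 ± 76.7 CPM in rescue, 264 ± 91.0 CPM in mutant and 1054 ± 402 CPM in control larvae (SD, n = 2 each). Among 5 glia markers wrapper fell in mutant larvae and Gs2 rose in rescue against mutant larvae (log2 -1.21 and 0.91). The glia gene moody had estimates of the other sign that did not pass (log2 0.84 for mutant against control and -0.80 for rescue against mutant), and the sums were 579 and 510.2 in rescue, 314 and 366 in mutant and 457 and 458 in control larvae. Of 7 fat body genes Lsp2 and Fbp1, which are induced late in larval life, fell in mutant and rose in rescue against mutant larvae. Estimates of the other sign were found for 2 of the 7 against control and 4 between rescue and mutant larvae. None of these passed in edgeR, and DESeq2 called 2 lower in rescue than in mutant larvae. The fat body sums were 57385 and 81724 CPM in rescue, 69810.0 and 76461 CPM in mutant and 97906.5 and 98145.5 CPM in control larvae. Of 9 testis genes bam, a gene of early germ cells, fell in mutant against control larvae. There 5 of the 9 had positive estimates that did not pass, and the median of the 9 was 0.02. The sums were 21.3 and 20.4 CPM in rescue, 36.7 and 29.97 CPM in mutant and 40.0 and 21.5 CPM in control larvae. No gene on the marker lists was at 0 counts in all libraries of a genotype. The part of neural tissue, of stage and of other tissues in the values of the 38 genes was not tested.

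**Figure D4:**
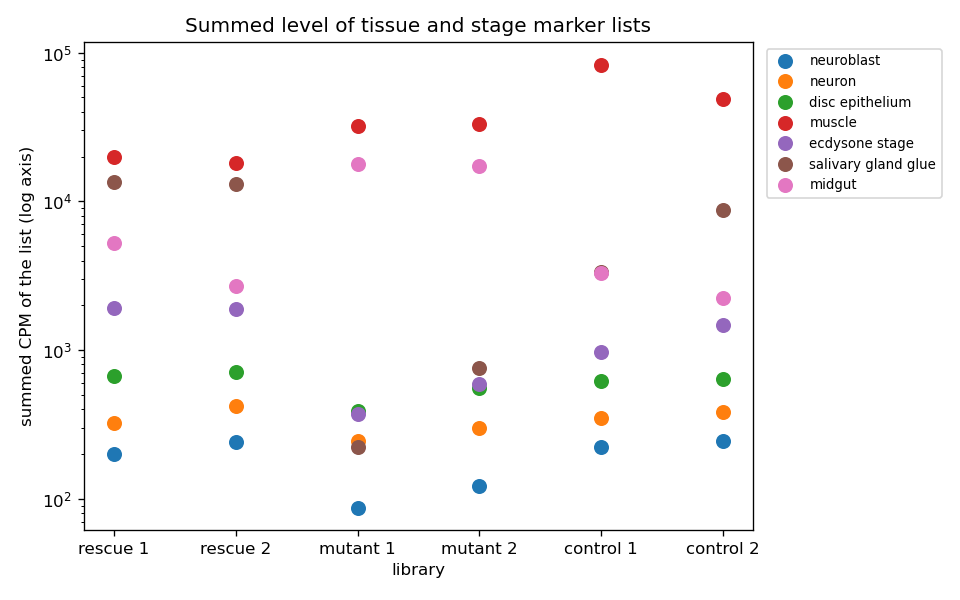
Summed CPM of marker lists for neuroblasts, neurons, disc epithelium, muscle, ecdysone response, salivary glue and midgut enzymes in each library, on a log axis. The ecdysone and glue sums are lowest in the 2 mutant libraries and lower in control 1 than in control 2, while the midgut sum is highest in the mutant libraries.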

How the data were processed

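Per the file headers, the deposited gene table pairs NCBI gene identifiers with symbols and positions, and its values are raw read counts. The authors' deposited FPKM table gives those counts per length of gene and per library, with a library denominator other than the count total. It was used for levels per length and for limma alternatives. The deposited group table equals the mean FPKM per group and was used for nothing else. Which aligner, counter, strand setting and build the authors used is not given in the sources used here, so reads of overlapping antisense genes cannot be told apart. Of the 38 genes, 37 have the start and end of RefSeq Release 6.

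Counts were fitted with edgeR 4.0.16 in R 4.3.3 (quasi-likelihood F test, TMM, 6 libraries, 3 groups, no block, filterByExpr with a minimum count of 10), with Benjamini-Hochberg adjustment over 11866 genes. SE is the absolute log2 fold change over the square root of F, and log2 CPM used a prior count of 2. The scripts were tested on simulated data. Alternatives were DESeq2 1.42.0 and its size factors, other filters, 2 groups only, a replicate block, each library left out, and limma 3.58.1 on log2(FPKM + 0.1) or log2(FPKM + 1). Genes and lists were chosen with earlier results of these data known. Library values are given for all 38 genes. From each other list, up to 3 called genes with the smallest p in either mutant comparison are named. Sequences were not used here.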

Additional observations from a re-analysis of the deposited data

How the results depend on the processing

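All 29 called fold changes of the 38 genes (9 for mutant against control and 20 for rescue against mutant) kept their direction under each of the 14 alternatives, and medians over the 38 ranged over -0.86 to -0.45 for mutant against control, 0.72 to 1.15 for rescue against mutant and 0.12 to 0.53 for rescue against control. Calls depended on the libraries. Leaving out 1 library gave 1 to 16 calls among the 38 for mutant against control, 3 to 23 for rescue against mutant and 0 to 4 for rescue against control, and 611 to 1930, 400 to 2504 and 12 to 778 over all genes. DESeq2 called 17 of the 38 for mutant against control (9 by edgeR), with 2830 of all genes (2015 by edgeR), and limma on log2(FPKM + 0.1) called 13 for rescue against mutant (20 by edgeR), with 1658 of all genes (1908 by edgeR). For rescue against control, the 76 genes called by edgeR became 1026 by DESeq2, 478 with no filter on low counts, 11 with only these 2 groups in the fit and 117 with the replicate block. The cause of these shifts was not tested. Over all 11866 genes tested, libraries with equal replicate numbers did not deviate together. The r was 0.02 for rescue and mutant, 0.06 for rescue and control and 0.04 for mutant and control, across genes that are not independent replicates. Among the 38, replicate 2 lay above replicate 1 for 21 genes in rescue, 31 in mutant and 32 in control larvae, and r was not computed for them. The labels do not state pairs, and the numbers were not taken as pairs. With the replicate block 7 and 20 of the 38 genes were called for mutant against control and rescue against mutant, and 1831 and 1767 of all genes. Depth limits the precision of genes with few counts, such as ac, pb and Dfd.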

Other observations

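Genes that lie between Hox genes were also measured, and those named here were chosen after their values were seen. Between lab and Antp (3R, 6661427 to 6999228) the table holds 40 genes that are not Hox genes of this list, of which 10 were tested. They include close relatives that may share reads. The 5 tested Ccp84A cuticle protein genes there (Ccp84Aa, Ccp84Ab, Ccp84Ac, Ccp84Ad and Ccp84Ag) all fell in mutant against control larvae, and their control 1 values were above control 2. Ccp84Ab, for example, had 9.63 and 4.31 CPM in rescue, 2.06 and 2.39 CPM in mutant and 86.1 and 25.8 CPM in control larvae. Ama, which encodes a secreted immunoglobulin-domain protein, had 178 and 193 CPM in rescue, 20.7 and 22.99 CPM in mutant and 19.3 and 135 CPM in control larvae, and rose in rescue against mutant larvae (log2 3.09, adjusted p = 0.0375). The noncoding gene pncr002:3R also rose there (log2 1.97, adjusted p = 0.0242), as did CR45593, whose position overlaps Ama on the other strand and which is therefore uncertain (log2 3.94, adjusted p = 0.0249). In the bithorax complex, 4 of 12 other genes were tested. The noncoding gene iab-8, which lies between abd-A and Abd-B, had 1.14 and 1.91 CPM in rescue, 0.726 and 1.61 CPM in mutant and 2.33 and 2.88 CPM in control larvae.

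Of the 68 genes annotated as Homeobox by the authors that are not among the 38, 52 were tested. In mutant against control larvae 11 of them fell (21.2%, against 7.04% of all genes tested) and 5 rose (9.62%, against 9.94%). In rescue against mutant larvae 11 rose (21.2%, against 7.61%) and 2 fell (3.85%, against 8.47%). Their medians were -0.78 and 0.76. The 19 Homeobox genes among the 38 had 4 lower and 1 higher, and 8 higher and 1 lower, with medians of -0.63 and 0.87.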
